A study of Homo sapiens with 8 samples.

Results

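Autophagy is the route by which a cell wraps part of its own cytoplasm in a double membrane and delivers it to lysosomes. The 39 genes described here encode its core machinery, its cargo receptors and a pair of transcription factors that bind lysosomal and autophagy gene promoters. They were chosen by symbol for these functions, with earlier results of these data known. All 39 symbols matched 1 gene each among the 58884 in the table, and all 39 had a mean of at least 10 normalized counts over the 8 libraries, the condition for testing, which 17194 genes met.

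The cells were C4-2, an established castration-resistant prostate cancer line derived from LNCaP. In the treated group, 4 libraries came from cells that had received 1 µM DTHIB, also called E12, for 48 h. The submitters describe DTHIB as a compound that inhibits HSF1, the transcription factor of heat shock genes, by acting on it directly. The 4 control libraries came from cells given the solvent DMSO for the same time, and all cells grew in RPMI medium with serum. No label says that the libraries came from separate cultures, so the p-values given here reflect sample-to-sample spread that may be technical. Messenger RNA was measured, not autophagic flux.

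In starved or stressed cells the ULK kinase complex starts autophagosome formation, and a class III phosphatidylinositol 3-kinase (PI3K) complex then marks the membrane with the lipid PI3P. Lipid transfer proteins enlarge the membrane, and ubiquitin-like conjugation enzymes attach the small ATG8 proteins (LC3 and GABARAP) to it. Cargo receptors hold the ATG8 proteins with one part and ubiquitinated cargo with another.

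The libraries summed to 27229291 to 29159387 reads in the DTHIB group and 29499458 to 30926053 in the DMSO group, taking each library's smallest step as 1 read. The totals of the groups did not overlap, and the part of depth in the results below was not tested. All 9 luminal prostate markers examined (among them KLK3) had a mean of at least 7968 normalized counts. Of 14 markers of blood, stroma, endothelium and basal epithelium, 3 had a mean of at least 10 (VWF, PDGFRB and KRT14), while PTPRC, PECAM1, DCN and TP63 were among those under 10. The summed level of all 14 was 224 to 266 in DTHIB and 220.3 to 251 in DMSO libraries. In bulk RNA, fewer cells with a transcript and less of it per cell cannot be told apart.

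The autophagy genes moved in both directions and by small amounts. In DTHIB-treated cells 15 of 39 members rose and 13 fell (limma, Benjamini-Hochberg adjusted p under 0.05 over all 17194 genes), and 11 did not pass. Across all tested genes 64.6% passed, 31.0% higher and 33.7% lower, against 71.8% of the members, so the share is close to that of the transcriptome. The median log2 fold change was 0.02 for the members and -0.01 for all tested genes, and the median absolute log2 fold change was 0.20 for the members and 0.27 for all. A change of at least 1.5-fold was seen in 2 members, MAP1LC3A and TFEB, while 20.3% of all tested genes changed that much, 11.3% higher and 9.06% lower. Of the members, 38 had a mean of at least 300 normalized counts. Among the 9784 tested genes above that level, a level chosen after the values were seen, 74.7% passed, 2913 higher and 4399 lower. Their median log2 fold change was -0.06 and the median absolute log2 fold change was 0.20. A change of at least 1.5-fold was seen in 1063 of these 9784 genes, and in TFEB alone of the 38 members. Under quantile normalization the members split as 21 higher and 10 lower (53.8% and 25.6%), beside 32.6% and 30.0% of all tested genes, with a median of 0.10 for the members beside 0.02 for all tested genes on the log2 scale. By the authors' deposited table, 14 members were higher and 12 lower at an adjusted p under 0.05, with the same sign for all 39 members and the same call for 37. The share of all genes that passed in that table was not counted, so these 2 counts have no background beside them. The libraries of the groups did not overlap in 24 members, 13 with DTHIB above DMSO and 11 with DTHIB below it. This is 61.5% of the members, beside 57.9% of all tested genes and 69.3% of those with a mean of at least 300.

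**Figure D1:**
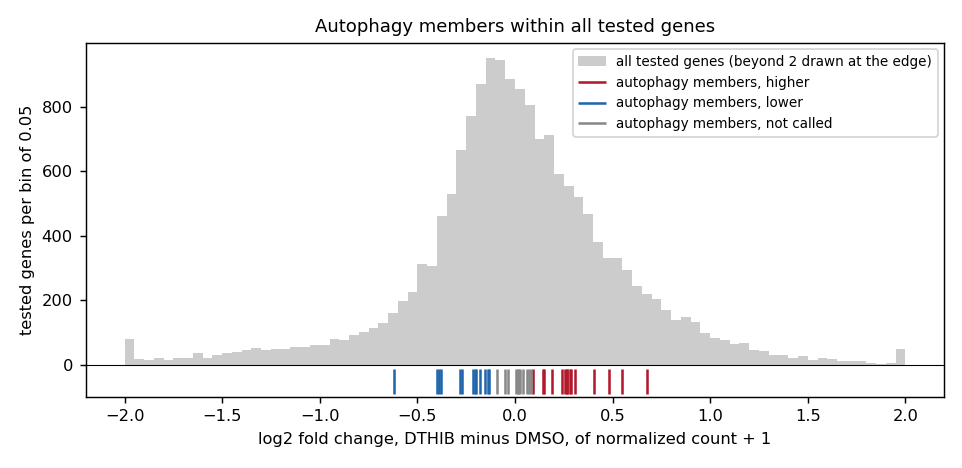
Distribution of the log2 fold change (DTHIB minus DMSO) of the 17194 tested genes as grey bars, with the number of genes per bin of 0.05 on the vertical axis and values beyond 2 drawn at the edge, and each of the 39 autophagy members as a tick under it. The members lie between -0.62 and 0.68.

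By step, the initiation genes (ULK and PI3K complexes) had 4 of 11 members higher and 4 lower, and their median log2 fold change was 0.04; under quantile normalization 6 were higher and 2 lower. The conjugation system, enzymes and ATG8 substrates together, had 6 of 16 higher and 6 lower, with a median of 0.02. Within it the 11 enzymes had a median of -0.14, with 3 higher and 6 lower, and the 5 ATG8 genes a median of 0.28, with 3 higher and none lower. MAP1LC3A, among these 3 higher ATG8 genes, was the least abundant member. Its groups overlapped, and it did not pass in the authors' deposited table. Of the 5 receptors, 3 were higher and 1 was lower, with a median of 0.14. These medians describe few genes each, and differences between the steps were not tested. Across all tested genes 31.0% were higher and 33.7% lower. Among the 18 members that share no exon with another gene 5 rose and 7 fell.

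**Figure D2:**
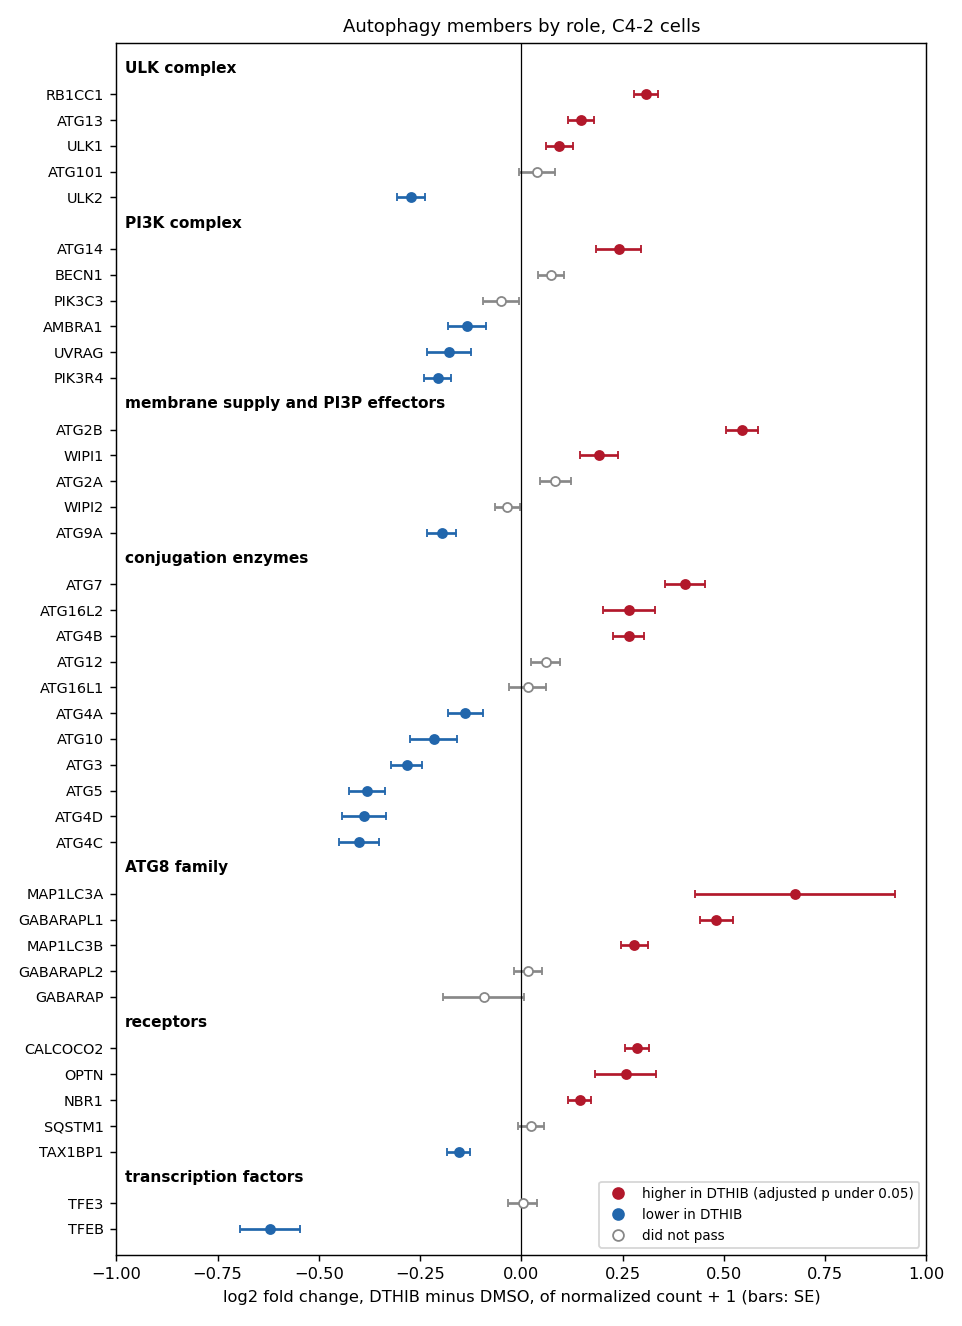
Log2 fold change (DTHIB minus DMSO, of normalized count + 1) of each of the 39 members, grouped by role; points are the estimates, bars their SE, filled points passed limma's test. Every group of 5 or more genes except the ATG8 family held both higher and lower members, and TFEB lay furthest to the left at -0.62. The higher ATG8 members include MAP1LC3A, the least abundant member, whose groups overlapped.

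The ULK complex had 3 of 5 members higher and 1 lower, where 31.0% of all tested genes were higher and 33.7% lower. RB1CC1 (FIP200), the large scaffold of the complex, had 4010.3, 3869, 4174 and 4024 normalized counts in DTHIB libraries, against 3213, 3282, 3205 and 3284 in DMSO libraries. All DTHIB values stood above all DMSO values, and the log2 fold change was 0.31 (SE 0.03, adjusted p = 1.23e-07 by limma). ATG13, the regulatory subunit that joins the kinase to the scaffold, rose to 3062 ± 72.5 in DTHIB, against 2764 ± 73.6 in DMSO (SD, n = 4 libraries per group here and in all such values).

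The kinases ULK1 and ULK2, which can stand in for each other, moved in opposite directions. ULK2 had 1534, 1493, 1428 and 1437 normalized counts in DTHIB, against 1774, 1802, 1782 and 1754 in DMSO, a log2 fold change of -0.27 (SE 0.035, adjusted p = 2.93e-06 by limma) with no overlap between groups. ULK1 had 2137, 2293, 2270.0 and 2283 in DTHIB and 2141, 2081, 2084 and 2109 in DMSO. Its groups overlapped, since DTHIB replicate 1 lay at the level of DMSO replicate 1, and its log2 fold change of 0.09 (limma adjusted p = 0.0199) missed the threshold with DTHIB replicate 2 (adjusted p = 0.0501) or DTHIB replicate 4 (adjusted p = 0.0551) left out. The ratio of ULK2 to ULK1, per kilobase of exon and within each library, was 0.486 to 0.555 in DTHIB and 0.640 to 0.669 in DMSO. A within-library ratio does not depend on the library scaling, and it shows unequal change of the pair. ATG101, which stabilizes ATG13, averaged 1131 ± 50.7 in DTHIB and 1101 ± 51.8 in DMSO and did not pass, except under quantile normalization (0.11, adjusted p = 0.0312).

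Among the 6 genes of the PI3K complex, 1 rose and 3 fell, beside 31.0% and 33.7% of all tested genes. Under quantile normalization 2 passed as higher and 1 as lower, beside 32.6% and 30.0% of all tested genes. ATG14, the subunit that directs the complex to autophagy, had 563, 552, 578 and 543 normalized counts in DTHIB, against 499, 495, 468 and 433 in DMSO, and rose without overlap by 0.24 on the log2 scale (SE 0.056, adjusted p = 0.00117 by limma). UVRAG, which takes the place of ATG14 in a second form of the complex, had 731, 638, 668 and 646 in DTHIB and 759, 761, 806 and 710.5 in DMSO. These groups overlapped at DTHIB replicate 1, and the log2 fold change of -0.18 (limma adjusted p = 0.00774) did not pass under quantile normalization (-0.11, adjusted p = 0.0818).

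The catalytic subunit PIK3C3 (VPS34) averaged 1083 ± 55.4 in DTHIB and 1120.2 ± 42.4 in DMSO, and the scaffold BECN1 2365 ± 32.8 in DTHIB and 2247 ± 66.2 in DMSO; neither passed the test. BECN1 came close (adjusted p = 0.0527), its 4 DTHIB values all lay above the DMSO values, and it passed with a minimum mean of 50 (adjusted p = 0.0450), under TMM rescaling (adjusted p = 0.0196), under quantile normalization (adjusted p = 0.000292) and without DMSO replicate 4 (adjusted p = 0.0384). BECN1 shares 300 exon bases with PSME3 on the opposite strand (mean 6605, log2 fold change -0.21). PIK3R4 (VPS15), the pseudokinase that holds PIK3C3, fell to 2132 ± 64.1 in DTHIB, against 2461 ± 48.2 in DMSO, with no overlap. AMBRA1, a BECN1 partner, averaged 717 ± 20.1 in DTHIB and 787 ± 36.6 in DMSO, overlapping by a narrow margin, with a log2 fold change of -0.13 (limma adjusted p = 0.0188). That call did not hold under quantile normalization (-0.06, adjusted p = 0.29), without DMSO replicate 3 (adjusted p = 0.0661) or DMSO replicate 4 (adjusted p = 0.0529), or in the authors' deposited table (adjusted p = 0.0560).

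The promoter of ATG14 is printed here together with that of ATG3, described further on, because among the 35 members with an entry in the RefSeq promoter table (GRCh38.p14) these are the 2 that hold CACGTG, the core bound by TFEB and TFE3, and they moved in opposite directions. Each line gives the 250 bases before the annotated start, 5′ to 3′ on the gene's strand, with CACGTG in capitals; ATG14 is chr14:55411831-55412080 on the minus strand and ATG3 chr3:112561963-112562212 on the minus strand.
ATG14: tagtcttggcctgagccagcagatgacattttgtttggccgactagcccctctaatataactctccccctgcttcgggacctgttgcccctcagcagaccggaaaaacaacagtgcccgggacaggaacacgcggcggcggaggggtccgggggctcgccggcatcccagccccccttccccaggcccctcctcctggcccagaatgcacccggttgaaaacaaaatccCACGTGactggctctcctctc
ATG3: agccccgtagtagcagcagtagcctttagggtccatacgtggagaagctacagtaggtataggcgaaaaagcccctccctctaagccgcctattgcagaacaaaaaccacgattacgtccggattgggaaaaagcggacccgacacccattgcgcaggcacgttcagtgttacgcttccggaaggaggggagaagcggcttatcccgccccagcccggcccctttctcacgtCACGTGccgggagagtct
The motif began 21 bases before the start in ATG14 and 18 before it in ATG3, which held another copy beginning at base 5 after the start, within TCACGTGA. In windows of 250 bases before to 50 after a start, CACGTG, its own reverse complement, stood in 7.26% of all 35116 windows, 9.32% of those of tested genes and 4.44% of the 45 windows of the members. TCACGTGA, which contains it, stood in 0.980% of all windows. A match is a description of letters and not of binding.

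Lipid supply genes were led by ATG2B (chromosome 14, 96279202 to 96363870, GRCh38), which bridges the endoplasmic reticulum and the growing membrane and carries lipid between them. It had 2032, 2278, 2098 and 2174 normalized counts in DTHIB, against 1507, 1491, 1407 and 1470.0 in DMSO. All DTHIB values were higher, and the log2 fold change of 0.55 (SE 0.039, adjusted p = 2.45e-09 by limma) was the largest rise among members with a mean above 300. Its paralog ATG2A averaged 1285 ± 43.9 in DTHIB and 1212 ± 29.8 in DMSO, and did not pass (adjusted p = 0.0643), although it did under TMM rescaling (adjusted p = 0.0315), under quantile normalization (adjusted p = 0.0015) and without DTHIB replicate 1 (adjusted p = 0.04) or DMSO replicate 4 (adjusted p = 0.0462). The ratio of ATG2B to ATG2A per kilobase was 0.853 to 0.966 in DTHIB libraries and 0.618 to 0.677 in DMSO libraries.

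ATG9A, the lipid scramblase of the vesicles that seed the membrane, fell to 1429 ± 38.6 in DTHIB, against 1638 ± 49.8 in DMSO. It shares 1833 exon bases with another protein-coding gene model on the same strand, and how reads of such shared bases were counted is not given in the labels. WIPI1, which reads PI3P, rose to 779 ± 23.6 in DTHIB, against 682 ± 34.03 in DMSO, with no overlap. It shares 828 exon bases with ARSG on the opposite strand, which also rose (mean 571, log2 fold change 0.32). WIPI2, the PI3P reader that recruits ATG16L1, averaged 2127 ± 33.5 in DTHIB and 2179 ± 39.9 in DMSO and did not pass.

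**Figure D3:**
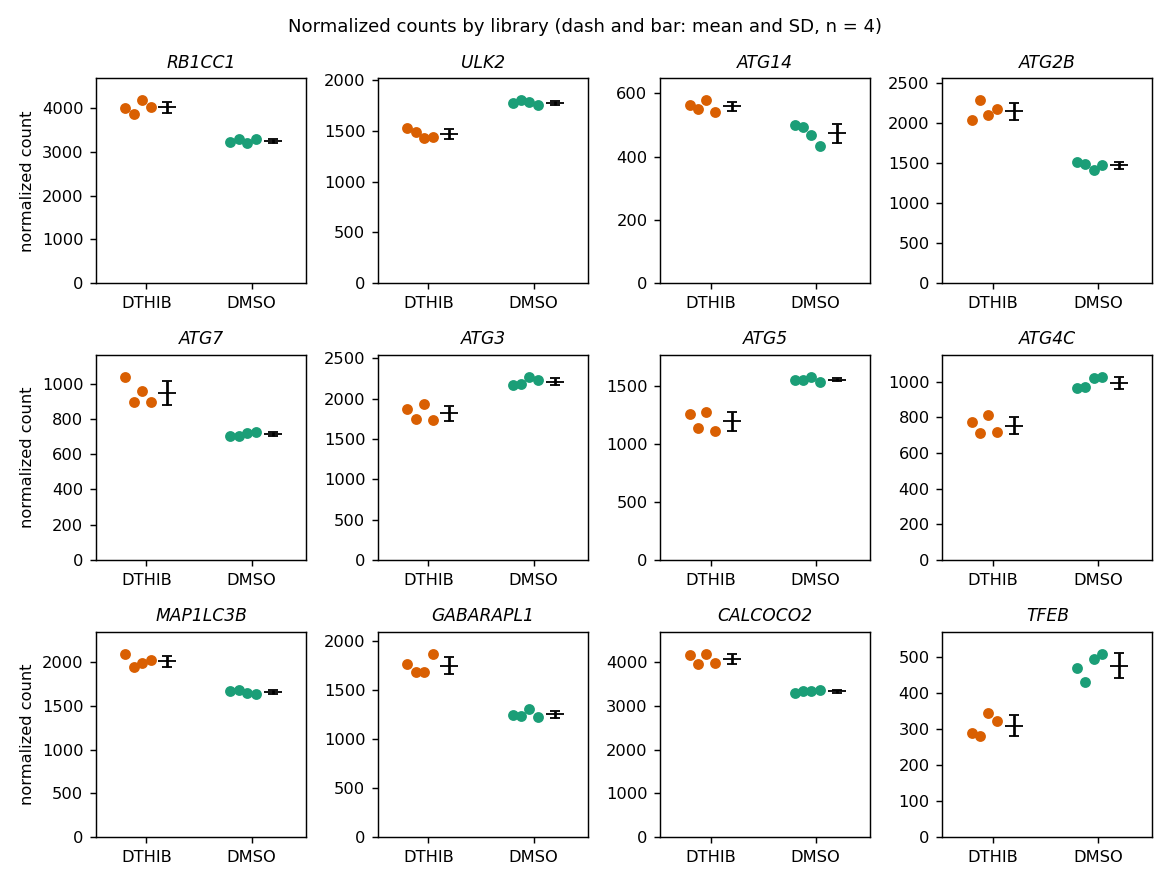
Normalized count in each library for 12 members, DTHIB left and DMSO right in each panel, with the mean and SD of 4 libraries as a dash and bar; all vertical axes start at 0. In each of these 12 panels the 4 DTHIB values and the 4 DMSO values do not overlap. The panels show only members without overlap, which are 24 of the 39 (61.5%, beside 57.9% of all tested genes). No member with overlapping groups is drawn.

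Of the 11 conjugation enzymes 3 rose and 6 fell, 81.8% in all, beside 64.6% of all tested genes (31.0% higher, 33.7% lower). Members of one reaction chain split. Under quantile normalization 4 enzymes were higher and 5 lower, beside 32.6% and 30.0% of all tested genes. ATG7, the E1-like enzyme that activates both ATG12 and the ATG8 proteins, had 1036, 896, 958 and 893 normalized counts in DTHIB, against 705, 702, 721 and 725 in DMSO, a log2 fold change of 0.40 (SE 0.05, adjusted p = 1.8e-06 by limma). ATG3, the E2-like enzyme that passes ATG8 proteins from ATG7 to lipid, had 1865, 1745, 1927 and 1733 in DTHIB, against 2164, 2177, 2263 and 2234 in DMSO, a log2 fold change of -0.28 (SE 0.038, adjusted p = 5.55e-06 by limma). Neither gene's groups overlapped, and the ratio of ATG7 to ATG3 per kilobase was 0.344 to 0.384 in DTHIB and 0.220 to 0.225 in DMSO. ATG7 shares 1596 exon bases with VGLL4 on the opposite strand, which had a log2 fold change of 0.04 (adjusted p = 0.35).

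ATG5, the acceptor of ATG12, had 1257, 1135, 1272 and 1115 normalized counts in DTHIB, against 1549.6, 1554, 1574 and 1535 in DMSO. It fell by 0.38 on the log2 scale (SE 0.044, adjusted p = 9.56e-07 by limma), and the DTHIB libraries were spread more widely than the DMSO libraries. ATG10, the E2-like enzyme that joins ATG12 to ATG5, fell to 310.0 ± 6.03 in DTHIB, against 360.2 ± 10.6 in DMSO; its exons overlap by 374 bases with RPS23 on the opposite strand, a far more abundant gene (mean 11851) with a log2 fold change of 0.26.

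ATG12 averaged 1301 ± 32.1 in DTHIB and 1248 ± 26.4 in DMSO and did not pass, except under quantile normalization (0.14, adjusted p = 0.00299). ATG16L1, which places the conjugate on the membrane, averaged 746 ± 18.6 in DTHIB and 738 ± 32.6 in DMSO and did not pass; it is the 1 member with transcripts outside the primary assembly. ATG16L2, its paralog, had 424, 499, 462 and 467 in DTHIB, against 388, 404, 398 and 349.7 in DMSO, and rose by 0.27 on the log2 scale (limma adjusted p = 0.00174). It shares 680 exon bases with FCHSD2 on the opposite strand (mean 504, log2 fold change -0.17). The ratio of ATG16L2 to ATG16L1 per kilobase was 0.405 to 0.471 in DTHIB and 0.346 to 0.398 in DMSO.

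The 4 ATG4 proteases, which trim ATG8 proteins before conjugation and release them afterwards, did not move together. ATG4B, the protease with the broadest action on ATG8 proteins, had 1872, 2029, 1928 and 1891 normalized counts in DTHIB, against 1595, 1700.5, 1575 and 1555 in DMSO, and rose by 0.27 on the log2 scale (SE 0.038, adjusted p = 1.18e-05 by limma). ATG4C had 772, 712, 814 and 718 in DTHIB, against 963, 970.3, 1023 and 1025 in DMSO, a log2 fold change of -0.40 (SE 0.049, adjusted p = 1.69e-06 by limma). ATG4D fell to 1023 ± 76.8 in DTHIB, against 1339 ± 83.4 in DMSO (log2 fold change -0.39). In these 3 genes the groups did not overlap. ATG4D shares 341 exon bases with KRI1 on the opposite strand (mean 2716, log2 fold change -0.17). ATG4B shares 237 with THAP4 on the opposite strand (mean 2120, log2 fold change -0.23).

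ATG4A fell by less, to 1052 ± 46.98 in DTHIB, against 1158 ± 40.4 in DMSO. Its groups did not overlap either, by a narrow margin (at most 1091 in DTHIB, at least 1100.4 in DMSO). It did not pass under quantile normalization (-0.07, adjusted p = 0.174). Per kilobase of exon, ATG4B made up 21.7% ± 1.29 of the summed ATG4 level in DTHIB and 15.7% ± 0.931 in DMSO libraries. In level per kilobase the order in DMSO was ATG4D (588 ± 36.6), ATG4A (395 ± 13.8), ATG4C (320.0 ± 10.7) and ATG4B (242 ± 9.78). In DTHIB libraries ATG4B (291 ± 10.5) stood above ATG4C (242 ± 15.5). These orders depend on the exon length used, the union over all annotated transcripts. By normalized count ATG4B was the highest ATG4 gene in both groups (1606 ± 64.9 in DMSO, 1930 ± 70.0 in DTHIB).

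Among the 5 ATG8 genes 3 rose and none fell, with MAP1LC3A among the 3 although its groups overlapped. Of all tested genes 31.0% rose and 33.7% fell. GABARAPL1 (chromosome 12, 10212458 to 10223130, GRCh38), a GABARAP-subfamily protein, had 1767, 1683, 1679.8 and 1865 normalized counts in DTHIB libraries, against 1248, 1232, 1301 and 1226 in DMSO libraries. The lowest DTHIB value stood well above the highest DMSO value, and the log2 fold change was 0.48 (SE 0.04, adjusted p = 1.61e-08 by limma). MAP1LC3B (chromosome 16, 87383995 to 87404779), the LC3 protein commonly followed as a marker of autophagosomes, had 2095, 1947, 1992 and 2025 in DTHIB, against 1671, 1682, 1645 and 1639 in DMSO. Its groups did not overlap either, with a log2 fold change of 0.28 (SE 0.034, adjusted p = 1.39e-06 by limma). The near-identical gene MAP1LC3B2 (97.3% identity over 601 bases) had 39.8 ± 5.08 in DTHIB and 29.2 ± 7.32 in DMSO, and how reads common to both copies were counted is not given in the labels.

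The promoters of GABARAPL1 and MAP1LC3B, the ATG8 genes that rose without overlap between groups, are printed with 1 motif each in capitals, again as the 250 bases before the start from RefSeq (GRCh38.p14): TGACGTCA, the cyclic AMP response element bound by CREB and ATF factors, in GABARAPL1 (chr12:10212627-10212876, plus strand), and TGACNNNGC, the antioxidant response element core bound by NRF2, in MAP1LC3B (chr16:87392086-87392335, plus strand).
GABARAPL1: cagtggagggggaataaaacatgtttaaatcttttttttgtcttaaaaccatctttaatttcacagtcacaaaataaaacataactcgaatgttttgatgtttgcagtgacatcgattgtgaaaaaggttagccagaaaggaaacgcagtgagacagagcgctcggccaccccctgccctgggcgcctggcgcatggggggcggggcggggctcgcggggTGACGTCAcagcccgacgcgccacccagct
MAP1LC3B: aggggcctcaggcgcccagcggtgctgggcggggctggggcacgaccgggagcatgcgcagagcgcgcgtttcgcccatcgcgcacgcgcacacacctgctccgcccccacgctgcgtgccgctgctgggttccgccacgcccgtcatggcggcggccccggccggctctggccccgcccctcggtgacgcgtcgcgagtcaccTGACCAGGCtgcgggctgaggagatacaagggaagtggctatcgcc
All motifs were searched on both strands. TGACGTCA stood in 1.85% of all windows, in 2.72% of those of tested genes and in those of 1 of the 35 members (2.22% of the member windows). TGACNNNGC stood in 13.3% of all windows, 14.7% of those of tested genes and 6.67% of the member windows. The 3 members with it were MAP1LC3B and CALCOCO2, which rose, and ATG101, which did not pass. TGATGCAA, the composite element of ATF4 and C/EBP factors, stood in 0.866% of all windows and in none of the members'. GAANNTTC, a heat shock element core, stood in 6.77% of all windows, 4.97% of those of tested genes and 4.44% of the member windows. The 2 members with it were TAX1BP1, which fell, and GABARAPL2, which did not pass. The GC box GGGCGG stood in 71.1% of the member windows and in 64.5% of those of tested genes.

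GABARAPL2, the ATG8 gene with the highest level per kilobase in both groups, had 2768, 2567, 2794 and 2685 normalized counts in DTHIB and 2642, 2699.6, 2607 and 2739 in DMSO. These values overlapped, and the log2 fold change of 0.02 did not pass (SE 0.034; adjusted p = 0.684), except under quantile normalization (0.10, adjusted p = 0.00926). GABARAP had 446, 368, 438 and 305 in DTHIB and 379, 433, 449.6 and 385 in DMSO, overlapping and with the widest relative spread among members above 300 counts. It shares 691 exon bases with another protein-coding gene model on the same strand, which is listed at 0.

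MAP1LC3A was the least abundant member, with 25.01, 19.8, 21.97 and 31.9 normalized counts in DTHIB and 10.5, 20.1, 17.4 and 13.03 in DMSO. The groups overlapped, and its log2 fold change of 0.68 (SE 0.25, adjusted p = 0.0241 by limma) did not pass with no filter on low values (adjusted p = 0.0641), under quantile normalization (adjusted p = 0.0708), without DTHIB replicate 4 (adjusted p = 0.0879), DMSO replicate 1 (adjusted p = 0.0808) or DMSO replicate 4 (adjusted p = 0.0569), or in the authors' deposited table (adjusted p = 0.0942). Per kilobase, GABARAPL2 stood at 891 ± 33.7 in DTHIB and 881 ± 19.3 in DMSO, GABARAPL1 at 428 ± 21.4 in DTHIB and 306 ± 8.46 in DMSO, and MAP1LC3B at 379 ± 11.7 in DTHIB and 312 ± 3.88 in DMSO. In DMSO libraries GABARAPL1 and MAP1LC3B lay side by side per kilobase, with a ratio of 0.952 to 1.03, and in DTHIB libraries that ratio was 1.10 to 1.20. By normalized count MAP1LC3B was the higher of the pair in both groups.

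**Figure D4:**
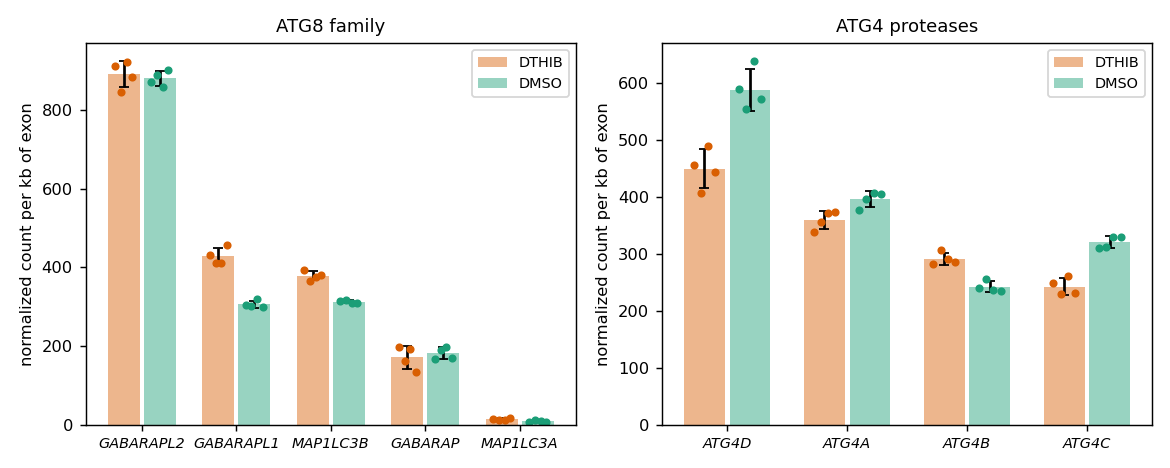
Normalized count per kilobase of exon for the 5 ATG8 genes and the 4 ATG4 proteases, DTHIB left of DMSO in each pair; bars are means, error bars SD, points the 4 libraries. GABARAPL1 and MAP1LC3B are higher in DTHIB without overlap beside an overlapping GABARAPL2, and ATG4B is higher where the other ATG4 genes are lower.

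The cargo receptors split, and the most studied of them, SQSTM1 (p62), did not pass the test. It had 8109, 7756, 7387 and 7805 normalized counts in DTHIB and 7511, 7607, 7913 and 7504 in DMSO, with overlapping groups and a log2 fold change of 0.02 (SE 0.031; adjusted p = 0.519); under quantile normalization it was 0.07 (adjusted p = 0.0342). It shares 1582 exon bases with MRNIP on the opposite strand (mean 721, log2 fold change 0.36).

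CALCOCO2 (NDP52), a receptor for bacteria and damaged mitochondria, had 4169.8, 3956, 4191 and 3987 in DTHIB, against 3294, 3347, 3347 and 3378 in DMSO. All DTHIB values were higher, with a log2 fold change of 0.29 (SE 0.03, adjusted p = 2.45e-07 by limma). TAX1BP1, a CALCOCO2 relative and the most abundant member by count, had 10994, 10618, 11141 and 10414 in DTHIB, against 11791, 11827, 12154 and 12288 in DMSO, all lower, with a log2 fold change of -0.16 (SE 0.029, adjusted p = 0.000165 by limma).

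NBR1, a receptor that acts with SQSTM1 on ubiquitin condensates, rose to 5979.7 ± 174 in DTHIB, against 5409.5 ± 65.1 in DMSO, with no overlap. OPTN, a mitophagy receptor, had 418, 338, 396 and 426 in DTHIB and 299.8, 339.7, 342 and 334 in DMSO. DTHIB replicate 2 lay within the DMSO range, and the log2 fold change was 0.26 (limma adjusted p = 0.00671). By level per kilobase TAX1BP1 (1178 ± 36.5 in DTHIB, 1311 ± 26.7 in DMSO) and SQSTM1 (1014 ± 38.7 in DTHIB, 997 ± 25.1 in DMSO) led the receptors, and OPTN (76.8 ± 7.75 in DTHIB, 64.02 ± 3.85 in DMSO) came last.

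Of the transcription factors, TFEB (chromosome 6, 41683978 to 41736259, GRCh38) had 289.7, 281, 346 and 321 normalized counts in DTHIB, against 468, 432, 496 and 508 in DMSO. No DTHIB value reached the DMSO range, and TFEB fell by 0.62 on the log2 scale (SE 0.074, adjusted p = 1.19e-06 by limma). TFE3, which binds the same elements, had 2097, 2194, 2180.2 and 2100.5 in DTHIB and 2173, 2027, 2237 and 2120.3 in DMSO, overlapping, with a log2 fold change of 0.0031 (SE 0.036; adjusted p = 0.946) that passed under quantile normalization at 0.09 (adjusted p = 0.0332). Per kilobase TFE3 was the more abundant of the pair, 500.4 ± 11.95 in DTHIB and 499.5 ± 20.8 in DMSO, against 54.8 ± 5.23 in DTHIB and 84.3 ± 6.01 in DMSO for TFEB. The ratio of TFEB to TFE3 per kilobase was 0.0973 to 0.120 in DTHIB and 0.161 to 0.182 in DMSO. Both proteins are controlled mainly by their phosphorylation and location, which RNA levels do not show.

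A wider list of 49 further autophagy genes held 45 that could be tested. Of these 14 rose and 16 fell, 66.7% in all beside the 64.6% of all tested genes, and their median was -0.04 on the log2 scale. FUNDC1, PLEKHM1, TFEC and MAP1LC3C had means under 10 and were not tested. The kinase PINK1, which marks damaged mitochondria, averaged 451 ± 5.36 in DTHIB and 414 ± 31.1 in DMSO and did not pass (adjusted p = 0.0739), except under TMM rescaling (adjusted p = 0.0460), under quantile normalization (adjusted p = 0.0415) and without DMSO replicate 3 (adjusted p = 0.0418) or DMSO replicate 4 (adjusted p = 0.0446). TBK1, which phosphorylates OPTN, fell to 2526 ± 104 in DTHIB, against 2889.8 ± 67.2 in DMSO.

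Among 14 tested selective receptors 5 rose and 3 fell, 57.1% in all beside the 64.6% of all tested genes. CALCOCO1, a receptor for the endoplasmic reticulum and Golgi, had 1215, 1266, 1219 and 1301 in DTHIB, against 774, 735, 721 and 719 in DMSO (log2 fold change 0.76, SE 0.042, adjusted p = 6.62e-11 by limma). CCPG1, a receptor in the endoplasmic reticulum membrane, had 722, 750.4, 733 and 725 in DTHIB, against 433, 419, 415 and 451 in DMSO (log2 fold change 0.77; limma adjusted p = 3.81e-10). Both rose in all libraries without overlap, whereas TEX264, another receptor of that membrane, fell to 2537 ± 60.8 in DTHIB, against 3049 ± 60.3 in DMSO.

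All 5 tested PI3P effectors and regulators passed, 2 higher and 3 lower, where 64.6% of all tested genes passed. WDR45 (WIPI4), a partner of the ATG2 proteins, had 2033, 2063, 2035 and 2038 in DTHIB, against 1338, 1276, 1269 and 1331 in DMSO (log2 fold change 0.65; limma adjusted p = 2.87e-11), and TECPR1 had a log2 fold change of 0.34. RUBCN (Rubicon), an inhibitor of the UVRAG form of the PI3K complex, had -0.18. In the membrane supply group ATG9B rose by 0.57, while TMEM41B, a scramblase of the endoplasmic reticulum, and SH3GLB1, a membrane-curving partner of UVRAG, had log2 fold changes of -0.25 and -0.15; the SH3GLB1 call did not hold under quantile normalization (adjusted p = 0.0522).

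Of 12 tested genes for fusion with lysosomes 3 rose and 6 fell, 75% in all beside the 64.6% of all tested genes. Among them were VPS11 of the HOPS tethering complex (0.41), the tether EPG5 (0.38) and the SNARE SNAP29 (-0.21). C9orf72, part of a complex that binds the ULK complex, had a log2 fold change of 0.32, ZKSCAN3, a repressor of autophagy genes, 0.26, and FOXO1 -0.22, the last not passing without DMSO replicate 1 (adjusted p = 0.0537). MAP1LC3B2 had a log2 fold change of 0.46 and did not pass (adjusted p = 0.0555), except with the replicate number as a block (adjusted p = 0.0487) and without DMSO replicate 1 (adjusted p = 0.0335) or DMSO replicate 2 (adjusted p = 0.0443).

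**Figure D5:**
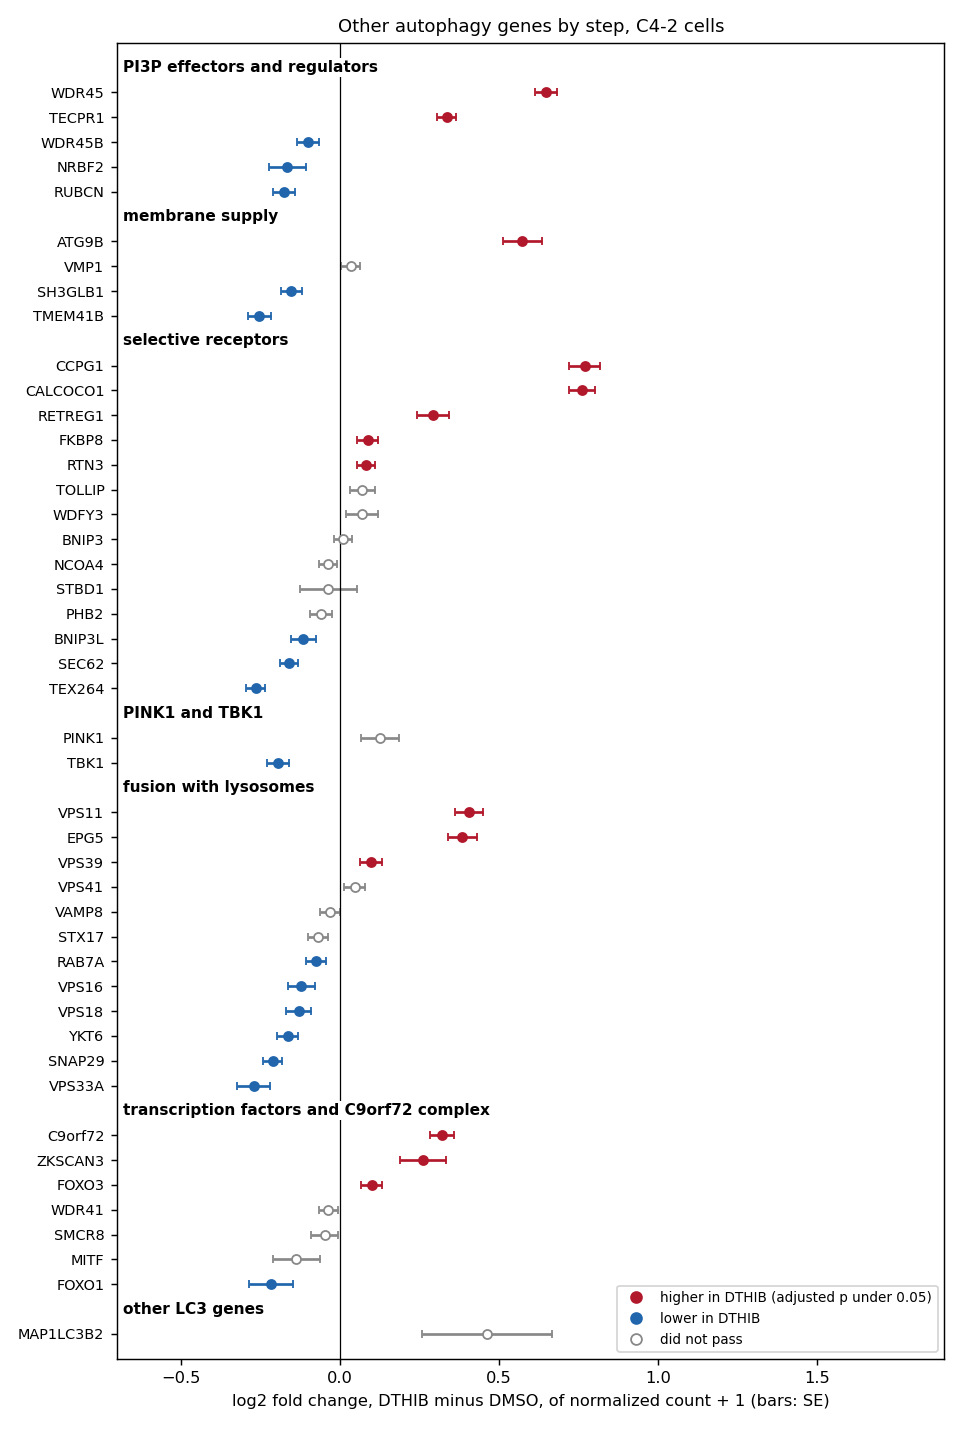
Log2 fold change (DTHIB minus DMSO, of normalized count + 1) of the 45 tested genes of the wider autophagy list, grouped by step; points are estimates, bars SE, filled points passed limma's test. CCPG1 (0.77), CALCOCO1 (0.76) and WDR45 (0.65) stand furthest to the right.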

How the data were processed

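Poly(A) RNA of 8 libraries was grouped by the treatment in the labels, 4 DTHIB and 4 DMSO. The submitters' processing notes name DESeq2 (2.11.40.2), featureCounts (1.6.3), StringTie (1.3.4), HISAT2 (2.1.0), Trimmomatic (0.36.5) and the build GRCh38. The handling of strand and of ambiguous reads was not given in the sources used here. The signal the authors deposited is, by its name, a count divided by a DESeq2 size factor. All values were multiples of 1 step per library, 100% within 0.01, which gives the library totals. The authors also deposited a DESeq2 result, whose unlabelled columns were read as the mean signal, log2 fold change, its SE, Wald score, p-value and adjusted p-value; its log2 fold change had the sign of DTHIB minus DMSO in 99.4% of tested genes.

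Values were fitted as log2(normalized count + 1) in limma 3.58.1 (R 4.3.3, eBayes with trend, two-sided), without covariates, over genes with a mean of at least 10, so fold changes of low genes are understated. Alternatives were pseudocounts of 0.5 and 5, no filter, a mean of at least 50, rescaling by trimmed means of M values (TMM), quantile normalization, a replicate block and each library left out. The fit was tested on simulated data with few changed genes and no difference in depth between groups, which does not examine the scaling. Gene positions and exon lengths (union of exons) came from GENCODE release 29, where 58611 of 58884 genes had a position, and gene copies from a search of its transcripts (at least 95% identity over 300 bases). Orders, shares and sizes of ratios per kilobase depend on this length, which counts all annotated exons of a gene. Of the 39 members, 21 share exons with another gene, 2 of them on the same strand, and not all of these overlaps are named above. Without a stated strand setting the counts of these 21 members are uncertain. Shared exons and copies were searched for the 39 members only, so the genes of the wider list were not checked for them. Libraries of 1 group differed by more than sampling noise (chi-square per gene 2.39 to 5.19), so none was counted as a repeat. All members are named, and from the wider list up to 3 genes per group with the smallest adjusted p, besides untested genes. A further autophagy gene was left out of the wider list and is not reported here. The members and the wider list were chosen with earlier results of these data known.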

Additional observations from a re-analysis of the deposited data

Results flagged for a closer look

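In 4 of the 78 groups of 4 libraries (39 genes in each treatment) 1 library lay far from the rest by Dixon's criterion, a share near the 1 in 20 that chance gives. DTHIB replicate 1 was lowest for ULK1, with 2137 normalized counts beside 2270.0 to 2293 in the other DTHIB libraries. The same library was lowest for ATG12, with 1253 beside 1313 to 1324. DMSO replicate 4 was highest for ATG13, with 2874 beside 2719 to 2740.0 in the other DMSO libraries, and lowest for ATG12, with 1208 beside 1258 to 1263.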

How the results depend on the processing

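Of the 28 called members, 23 kept their call in all 15 alternatives run; the exceptions were ULK1, UVRAG, AMBRA1, ATG4A and MAP1LC3A. Quantile normalization, which gave 21 higher and 10 lower members, also gave 6 higher and 2 lower initiation members in place of 4 and 4 and reversed the sign of PIK3C3 (0.020) and WIPI2 (0.047), neither of which passed. Over the fits without 1 library the members numbered 13 to 16 higher and 12 to 13 lower, and all genes 4916 to 5150 higher and 5393 to 5733 lower. In these fits 3 log2 fold changes that did not pass took both signs: TFE3 from -0.023 to 0.025, ATG16L1 from -0.0042 to 0.035 and GABARAP from -0.16 to 0.018. The cause was not tested. The replicate numbers did not pair the libraries (correlations of deviations from group means from -0.07 to 0.01 for equal numbers, under 0.1); with the replicate block 15 members were higher and 13 lower, as without it, and no member changed its call. The count tests of edgeR and DESeq2 on reads rebuilt from the normalized values were not run. Counting error weighs most on MAP1LC3A, the member with the lowest level.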
